A study of Mus musculus with 9 samples.

Results

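The 6 genes described here handle zinc in the cell: the metallothionein genes Mt1 and Mt2, the zinc-sensing transcription factor gene Mtf1, the zinc exporter gene Slc30a1, and the zinc importer genes Slc39a10 and Slc39a14. They were chosen by symbol with earlier results of these data known, and all 6 were found among the 46095 gene symbols of the count table. All 6 also passed the filter on low counts, which left 14026 genes to test. RNA was sequenced from cultured bone marrow-derived macrophages (BMDMs) of wild type Balb/c mice, 6 week old by the labels. The 9 libraries form 3 groups of 3: untreated control, LPS alone, and LPS together with BHB (LPS plus BHB below). Neither dose nor time is given, and the abbreviations are not spelled out in the labels; lipopolysaccharide, from the bacterial outer membrane, and beta-hydroxybutyrate, a ketone body, are their usual meanings. BHB without LPS was not among the groups, and strain, genotype and cell type are shared by all. Nothing in the labels tells if replicates were cultured separately or came from different animals; p-values then measure the spread between these samples only.

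Metallothioneins are small cysteine-rich proteins that bind zinc and copper in the cytosol and release zinc on oxidation. When free zinc rises, MTF1 binds metal response elements in promoters and raises transcription of metallothionein genes and of Slc30a1, whose product (ZnT1) exports zinc across the plasma membrane. Slc39a10 (ZIP10) and Slc39a14 (ZIP14) bring zinc into the cytosol, Slc39a10 is known to be held down by MTF1 when zinc is ample, and ZIP14 also carries iron and manganese. Macrophages redistribute zinc on activation as part of withholding metals from microbes.

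Promoter sequence is shown for the 3 members that hold the metal response element core upstream of their start, since these are known MTF1 targets that moved in different directions. The core was searched as TGCACNC or TGCGCNC on both strands in the 250 bases before each RefSeq start, where matches can overlap only across strands, and none of those printed do. Matches are in capitals, and bases inside the annotated gene are left out. The sequences are RefSeq's (GRCm38.p6, plus strand, C57BL/6J reference and not Balb/c), at chr8:94178839-94179081 for Mt1, chr8:94172368-94172617 for Mt2 and chr1:191906531-191906766 for Slc30a1.
Mt1: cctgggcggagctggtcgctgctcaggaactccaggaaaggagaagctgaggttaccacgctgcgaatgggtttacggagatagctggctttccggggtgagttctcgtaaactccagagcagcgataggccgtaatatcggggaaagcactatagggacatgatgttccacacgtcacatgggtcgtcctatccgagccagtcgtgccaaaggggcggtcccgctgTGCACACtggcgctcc
Mt2: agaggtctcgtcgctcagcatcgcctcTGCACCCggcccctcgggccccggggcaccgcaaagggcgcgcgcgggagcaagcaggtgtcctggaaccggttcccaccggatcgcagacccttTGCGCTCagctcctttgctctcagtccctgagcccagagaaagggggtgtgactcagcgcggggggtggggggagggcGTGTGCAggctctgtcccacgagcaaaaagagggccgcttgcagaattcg
Slc30a1: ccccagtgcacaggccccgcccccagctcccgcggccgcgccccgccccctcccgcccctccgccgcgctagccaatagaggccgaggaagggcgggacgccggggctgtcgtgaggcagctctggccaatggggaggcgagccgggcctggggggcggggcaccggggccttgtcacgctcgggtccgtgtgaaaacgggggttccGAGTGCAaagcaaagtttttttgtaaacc
Mt2 held 3 matches, Mt1 held 1 and Slc30a1 held 1. Of 32851 promoters of this length, 21.4% held at least 1 and 1.26% at least 3. With the 50 bases after the start included, Mt1 held 3, Mt2 4 and Slc30a1 2, against 1.97% of promoters with at least 3, 0.517% with at least 4 and 7.11% with at least 2. In Mt1 the added matches, TGCACTC and TGCGCTC, begin at positions 2 and 20 from the start and are not printed. Sequence farther downstream, such as that before any later start, was not searched. The counts thus depend on the start used and do not rank these genes by their metal response elements. The window of Mtf1 and both windows of Slc39a10 held no match. The Mtf1 window (chr4:124802299-124802548) lies inside the annotated gene, which starts at 124802104. For Slc39a10, chr1:46853619-46853868 lies inside the annotated gene, and chr1:46925777-46926026 lies well upstream of its 5' end at 46892852. Sequence directly before the annotated starts of Mtf1 and Slc39a10 was thus not searched. A promoter entry was matched for 5 of the 6 members; Slc39a14 had no match.

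The coding sequences of Mt1 and Mt2 are shown side by side, with the bases at which they differ in capitals (GENCODE M21, GRCm38, first-numbered transcript of each gene). They are only part of these transcripts, which span 549 bases for Mt1 and 511 for Mt2.
Mt1: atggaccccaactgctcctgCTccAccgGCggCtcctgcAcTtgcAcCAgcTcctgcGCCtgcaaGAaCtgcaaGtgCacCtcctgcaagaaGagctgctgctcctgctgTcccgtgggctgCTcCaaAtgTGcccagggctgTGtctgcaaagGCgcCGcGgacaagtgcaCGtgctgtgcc
Mt2: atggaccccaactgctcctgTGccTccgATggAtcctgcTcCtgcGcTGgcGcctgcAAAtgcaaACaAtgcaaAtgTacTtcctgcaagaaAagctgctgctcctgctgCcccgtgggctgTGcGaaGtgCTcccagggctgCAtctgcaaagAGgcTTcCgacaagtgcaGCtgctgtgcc
Each spans 183 bases, of which 145 (79.2%) are the same at the same position, and the longest identical stretch is 20 bases. None of the 1273 stretches of 31 bases in Mt1 transcripts occurs in another gene's transcripts, and 3 of 573 (0.524%) do for Mt2. For the other members this share was 0 for Mtf1 and Slc30a1, 1.62% for Slc39a10 and 0.622% for Slc39a14. Transcripts were compared in the sense direction only, so overlap with genes on the opposite strand is not counted in these shares. Mt2 (94172664 to 94173568) and Mt1 (94179082 to 94180327) lie on the plus strand of chromosome 8, with 5513 bases between them.

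Library totals ran from 29633411 to 32798920 counts. Values are given as CPM, counts scaled to a common library size with TMM factors. Acod1, which LPS induces, had 24, 1739 and 1808 counts in the 3 control libraries, against a lowest of 156090 in the LPS libraries, so control replicates 2 and 3 stood apart from replicate 1. The 8 macrophage markers were all measured in every group, with a summed 18592 to 21935 CPM in control, 8323 to 9541 with LPS and 9817 to 10263 with LPS plus BHB. Most of this sum was Lyz2 (mean 14575, 5061 and 5883 CPM). With LPS, Adgre1 (862 to 1315 CPM) and Spi1 (385 to 750 CPM) had higher means than in control, and the other macrophage markers lower ones. The highest sum in any library was 0.350 CPM for 7 lymphocyte markers, 2.20 for 8 neutrophil markers, 3.02 for 7 erythroid and megakaryocyte markers and 1.88 for 6 mast cell and basophil markers. The 7 stromal markers summed to 5.94 to 14.2 CPM in control, 98.01 to 108 with LPS and 131 to 160 with LPS plus BHB, most of it with treatment being Pdgfrb (mean 3.54, 98.5 and 138 CPM), while Lum had 3 counts over all 9 libraries. The 8 dendritic cell markers summed to 1.94 to 2.76, 20.05 to 24.7 and 16.4 to 17.5 CPM, most of it Zbtb46 with treatment. The part of other cells in the results was not tested. In bulk RNA, fewer cells of a type and less RNA per cell cannot be told apart.

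LPS was set against control to see how these genes responded to it. Slc39a14, Slc30a1, Mt2 and Mtf1 rose, and Slc39a10 and Mt1 fell, so the adjacent metallothionein genes moved in opposite directions. These were 4 members higher and 2 lower, in a comparison in which 79.8% of 14026 tested genes passed the threshold (38.4% higher and 41.4% lower). All 6 had groups that did not overlap, as did 82.7% of tested genes. Passing means an adjusted p under 0.05 in edgeR's quasi-likelihood fit, adjusted over all 14026 genes after Benjamini and Hochberg. By at least 2-fold, 3 members rose (18.7% of tested genes) and 2 fell (26.3% of tested genes). The median log2 fold change was 0.92 over the members and -0.06 over all tested genes.

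Adding BHB to LPS was compared with LPS alone to see which of these changes it altered. Slc30a1 fell back to a level that overlapped control, Mt1 and Mtf1 fell, Slc39a10 and Slc39a14 rose, and Mt2 did not pass. That is 2 members higher and 3 lower, where 50.7% of tested genes passed (26.4% higher and 24.4% lower), and 5 of 6 had groups that did not overlap, beside 56.7% of tested genes. By at least 2-fold, 0 members rose (7.89% of tested genes) and 1, Slc30a1, fell (3.36% of tested genes). The median log2 fold change was -0.10 over the members and 0.0064 over all tested genes. LPS plus BHB against control gave 3 higher (Mt2, Mtf1, Slc39a14), 2 lower (Mt1, Slc39a10) and Slc30a1 not called, where 78.4% of tested genes passed (38% higher and 40.4% lower). In that comparison 5 of 6 members had groups that did not overlap, beside 80.2% of tested genes. By at least 2-fold, 2 were higher (18.2% of tested genes) and 1 lower (23.4% of tested genes). The 3 comparisons share libraries, so their values are given side by side and are not independent of each other.

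**Figure D1:**
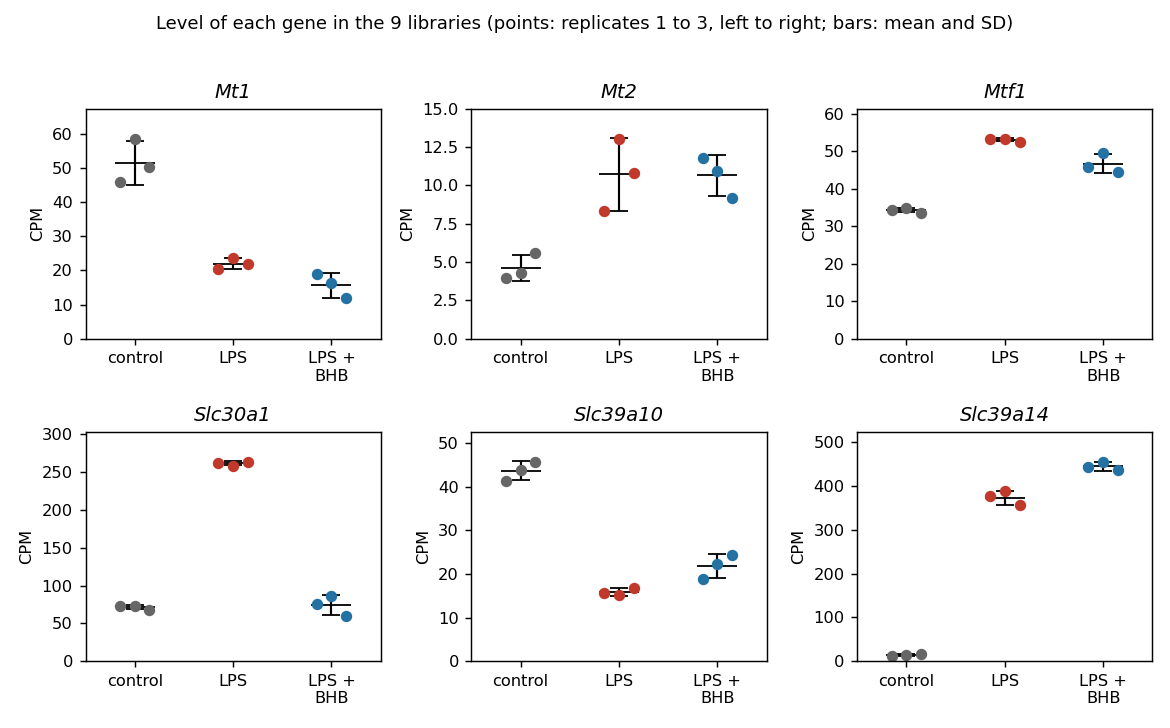
Level of each of the 6 genes in CPM (vertical axes, each from 0) in the 9 libraries by group, with points for replicates 1 to 3 and bars for the mean and SD. Slc30a1 is at 258 to 263 CPM in the LPS libraries and at 59.8 to 86.6 CPM in the LPS plus BHB libraries, around the 68.0 to 72.9 CPM of control.

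Mt1 is the more abundant metallothionein message in control macrophages. It stood at 45.9, 58.6 and 50.4 CPM in the control libraries, 20.4, 23.5 and 21.96 CPM with LPS, and 19.1, 16.3 and 11.8 CPM with LPS plus BHB. Every treated library lay below every control library, and the LPS plus BHB libraries all lay below the LPS libraries. LPS libraries averaged 21.97 ± 1.56 CPM and control 51.7 ± 6.45 CPM (SD, n = 3), a fall with a log2 fold change of -1.23 (SE 0.15; adjusted p = 2.13e-05, edgeR). With BHB added it fell further, to 15.7 ± 3.69 CPM (-0.48, SE 0.16, adjusted p = 0.0304 by edgeR). This second call was lost without LPS replicate 2 (adjusted p = 0.0970), LPS replicate 3 (0.0782) or LPS plus BHB replicate 2 (0.0771) in edgeR fits, and without LPS plus BHB replicate 3 the value was -0.31 and passed (0.0242). LPS plus BHB replicate 3 had the lowest Mt1 of all 9 libraries.

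Mt2 encodes the second widely expressed metallothionein. Its levels were 3.94, 4.31 and 5.57 CPM in control, 8.31, 13.0 and 10.8 CPM with LPS, and 11.8, 10.9 and 9.21 CPM with LPS plus BHB. Control libraries lay below all treated ones, and the treated groups overlapped. LPS libraries averaged 10.7 ± 2.37 CPM and control 4.61 ± 0.855 CPM (SD, n = 3), a rise with a log2 fold change of 1.22 (SE 0.17; adjusted p = 1.98e-06, edgeR). Between LPS plus BHB, at 10.7 ± 1.32 CPM, and LPS the log2 fold change was -0.01 with an approximate 95% interval of -0.40 to 0.38 (adjusted p = 0.975 by edgeR). Changes within that interval, in either direction, are not excluded by these data. The annotated gene Gm45774, not analysed here, overlaps Mt2 on the opposite strand.

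The balance of both genes shifted with treatment. Mt2 made up 7.91%, 6.85% and 9.96% of Mt1 plus Mt2 counts in the control libraries, 28.9%, 35.7% and 33.0% with LPS, and 38.2%, 40.2% and 43.9% with LPS plus BHB. The 3 groups did not overlap. In the library with the fewest metallothionein counts, LPS plus BHB replicate 3 with 595, the exact 95% binomial (Clopper-Pearson) interval was 39.8% to 48.0%, which covers counting error only. The ratio of Mt1 to Mt2 counts fell from 11.4 ± 2.29 in control to 2.10 ± 0.331 with LPS and 1.46 ± 0.171 with LPS plus BHB (SD, n = 3). Each pair of groups gave p = 0.1 in a two-sided exact permutation test of the log2 ratio, the smallest p that 3 against 3 libraries allow. Groups that do not overlap always give this value, so the test adds nothing to the lack of overlap. Summed, both genes stood at 56.3 ± 6.55, 32.7 ± 3.93 and 26.4 ± 5.004 CPM.

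**Figure D2:**
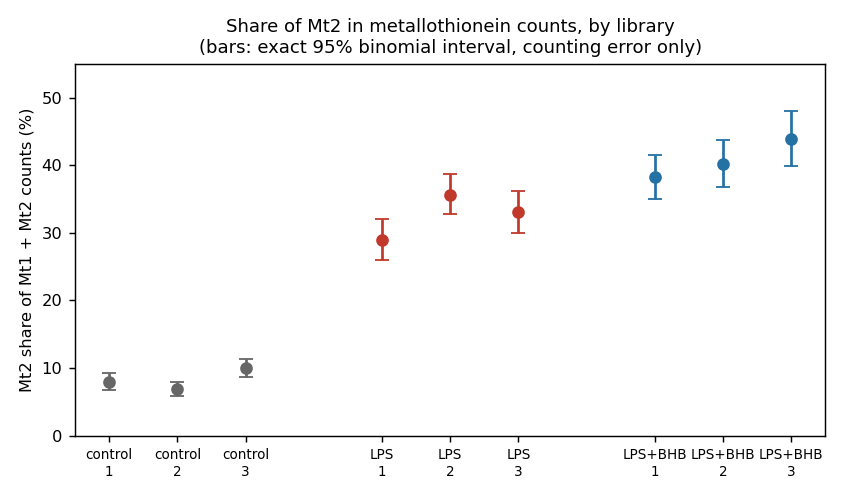
Share of Mt2 in the summed Mt1 and Mt2 counts of each library (vertical axis, percent), by group and replicate, with exact 95% binomial intervals that cover counting error only. The share lies between 6.85% and 9.96% in control, 28.9% and 35.7% with LPS, and 38.2% and 43.9% with LPS plus BHB.

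The other metallothionein genes of the chromosome 8 cluster were at or near 0, with 2 counts of Mt3 and 0 of Mt4 over all 9 libraries. A count of 0 allows up to 3 counts. The other protein-coding genes within 100 kb of the pair, looked up after the values of both were seen, are Bbs2 and Nup93. Bbs2 went from 6.38 CPM in control to 1.79 with LPS (-1.83 on the log2 scale, SE 0.22; adjusted p = 1.43e-07, edgeR), the direction of Mt1. Nup93 went from 31.5 to 50.1 CPM (0.67, SE 0.07, adjusted p = 4.21e-08), the direction of Mt2.

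Mtf1 encodes the zinc sensor that drives both metallothionein genes and Slc30a1. It was measured at 34.3, 34.7 and 33.6 CPM in control, 53.3, 53.2 and 52.5 CPM with LPS, and 45.9, 49.4 and 44.5 CPM with LPS plus BHB. No 2 groups overlapped, and LPS was the highest. It rose 1.55-fold with LPS, or 0.63 on the log2 scale (SE 0.06; adjusted p = 2.58e-09, edgeR). With BHB added it fell by a smaller amount, -0.19 (SE 0.06, adjusted p = 0.0105), and LPS plus BHB stayed above control by 0.45 (SE 0.06, adjusted p = 6.01e-07). Under scaling by library totals alone that last difference was 0.12 and did not pass (adjusted p = 0.0615 by edgeR), with the median of all tested genes at -0.38 in place of -0.06. The gene 1110065P20Rik overlaps Mtf1 on the opposite strand, with 204 to 382 counts per library against 1218 to 1616 for Mtf1, and without a stated strand setting reads of overlapping genes cannot be told apart.

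Slc30a1 encodes the plasma membrane zinc exporter, on chromosome 1 (191906767 to 191913247, plus strand). Its levels were 72.9, 72.7 and 68.0 CPM in control, 262, 258 and 263 CPM with LPS, and 75.9, 86.6 and 59.8 CPM with LPS plus BHB. The LPS libraries stood alone at the top, and the other groups overlapped. The rise with LPS was 3.67-fold (1.87 on the log2 scale, SE 0.11; adjusted p = 1.26e-07, edgeR), and 1229 of 14026 tested genes had a larger one. With BHB added the fall was nearly as large, from 261 ± 2.83 to 74.1 ± 13.5 CPM (SD, n = 3; -1.82, SE 0.11, adjusted p = 5.71e-07), and 161 tested genes had a larger fall. Both changes passed under all 16 alternatives tried.

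Whether LPS plus BHB differed from control in Slc30a1 was not settled. The log2 fold change was 0.06 with an approximate 95% interval of -0.21 to 0.33 (adjusted p = 0.648 by edgeR). Without LPS plus BHB replicate 3, the lowest library of that group, it was 0.20 and passed as higher (adjusted p = 0.00203). Scaled by library totals alone it was -0.27 and passed as lower (adjusted p = 0.0396 by edgeR). The gene 1700034H15Rik overlaps the start of Slc30a1 on the opposite strand and had at most 103 counts in any library, against at least 1694 for Slc30a1.

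Slc39a10, a plasma membrane importer on chromosome 1 (46807544 to 46892852, minus strand), moved opposite to Slc30a1. It stood at 41.3, 43.7 and 45.7 CPM in control, 15.6, 15.1 and 16.8 CPM with LPS, and 18.9, 22.2 and 24.5 CPM with LPS plus BHB. The groups did not overlap, and LPS was the lowest. The fall with LPS was from 43.6 ± 2.19 to 15.9 ± 0.868 CPM (SD, n = 3; -1.46 on the log2 scale, SE 0.09; adjusted p = 1.62e-12, edgeR). With BHB it rose to 21.8 ± 2.82 CPM (0.46, SE 0.09, adjusted p = 0.000201) and stayed below control (-0.997, SE 0.08, adjusted p = 6.34e-10). These 3 calls passed under all 16 alternatives.

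Slc39a14, an importer of zinc, iron and manganese on chromosome 14 (70303469 to 70351425, minus strand), had the largest change of the 6. Its levels were 11.2, 14.5 and 16.5 CPM in control, 375, 387 and 355 CPM with LPS, and 441, 455 and 436 CPM with LPS plus BHB. The groups did not overlap, and LPS plus BHB was the highest. The rise with LPS was 26.4-fold (4.72 on the log2 scale, SE 0.10; adjusted p = 5.83e-13, edgeR), and 266 tested genes had a larger one. Control replicate 1, with only 24 counts of Acod1, was also the lowest for Slc39a14, at 398 counts against 543 and 598. Fitted without control replicates 2 and 3 the log2 fold change was 5.06, so the rise was at least as large without those libraries.

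The added rise of Slc39a14 with BHB was small, from 373 ± 16.1 to 444 ± 9.73 CPM (SD, n = 3; 0.25 on the log2 scale, SE 0.08; adjusted p = 0.0238, edgeR). With the control libraries left out of the fit it passed (adjusted p = 0.000138 by edgeR). It did not pass with DESeq2 (adjusted p = 0.102), with scaling by library totals alone (0.0575), or without any 1 of LPS replicates 1 and 3 and the 3 LPS plus BHB replicates (0.0663 to 0.106).

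**Figure D3:**
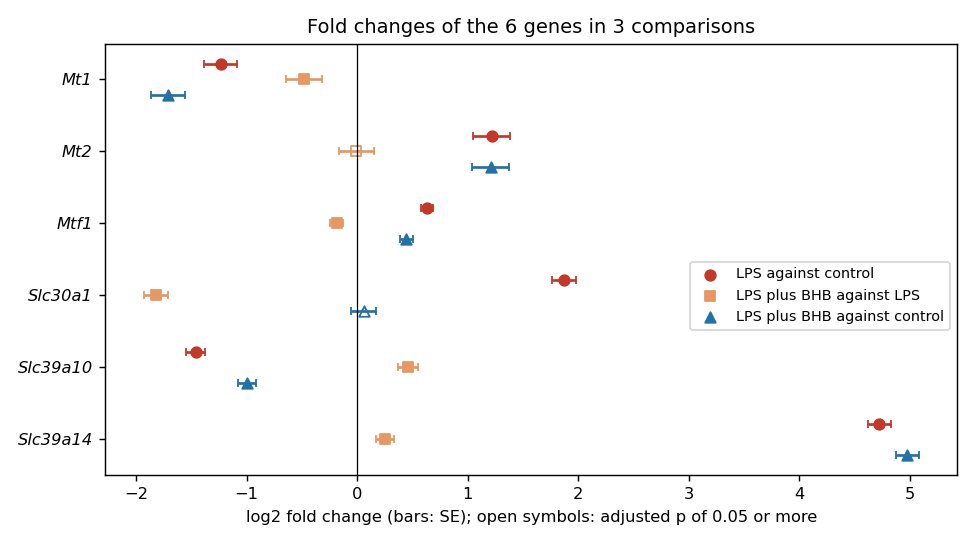
Log2 fold change (horizontal axis, bars are SE) of each gene in the 3 comparisons, with open symbols where the adjusted p by edgeR was 0.05 or more. Slc39a14 reaches 4.72 and 4.98 against control, and Slc30a1 goes from 1.87 with LPS to -1.82 when BHB is added.

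The spread between replicates differed between groups. Slc30a1 had a coefficient of variation of 3.91% among control, 1.08% among LPS and 18.2% among LPS plus BHB libraries, and Mt1 had 12.5%, 7.12% and 23.4%. In LPS plus BHB, replicate 3 was the lowest of its group for Mt1, Mt2, Mtf1, Slc30a1 and Slc39a14 and the highest for Slc39a10. Over all genes that replicate also stood farthest from the others of its group, with a chi-square per degree of freedom of 11.2 and 10.8 against replicates 1 and 2, where other pairs within groups had 3.16 to 7.80.

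Per kilobase of annotated exon (CPM per kilobase), the order of the 6 genes changed with treatment. In control it ran Mt1 (41.5 ± 5.18), Slc30a1 (13.6 ± 0.530), Mt2 (7.84 ± 1.45), Slc39a10 (7.15 ± 0.360), Mtf1 (3.84 ± 0.0633) and Slc39a14 (1.33 ± 0.254), with Mt2 and Slc39a10 not apart beyond their SD. With LPS the level of Slc30a1 was the highest at 49.8 ± 0.539, then Slc39a14 at 35.3 ± 1.52. Mt2 (18.2 ± 4.03) and Mt1 (17.6 ± 1.25) followed and were not apart beyond their SD, and Mtf1 (5.95) and Slc39a10 (2.60) came last. With LPS plus BHB Slc39a14 led at 42.1 ± 0.922, Mt2 (18.1 ± 2.24), Slc30a1 (14.1 ± 2.57) and Mt1 (12.6 ± 2.96) overlapped their neighbours, and Mtf1 (5.23) and Slc39a10 (3.58) were last. Levels per kilobase depend on the length used, most of all for Mt1 and Slc39a14 among the 6. With the first-numbered transcript (549 bases for Mt1, 511 for Mt2, 2098 for Slc39a14) Mt1 stood above Mt2 in each group, at 94.1 against 9.02, 40.02 against 21.0 and 28.6 against 20.8 CPM per kilobase, and Slc39a14 was at 6.71, 178 and 212.

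The SLC30 family moves zinc out of the cytosol, across the plasma membrane or into organelles. Of 10 family members 6 were tested, and all 6 rose with LPS, with a median log2 fold change of 1.29 beside -0.06 for all tested genes (38.4% of tested genes rose). Besides Slc30a1 these included Slc30a7, from 65.3 to 156 CPM (log2 fold change 1.26, SE 0.05), Slc30a6 (1.46, SE 0.08) and Slc30a5 (0.91, SE 0.06), whose products load zinc into the secretory pathway. With BHB added 2 rose and 2 fell (26.4% of tested genes rose and 24.4% fell), among them Slc30a9 (0.37, SE 0.05), Slc30a6 (0.23, SE 0.07) and Slc30a4 (-0.30, SE 0.08), while Slc30a7 was at -0.01 (SE 0.05) and did not pass. Slc30a1 thus had a fall of 1.82 on the log2 scale where the other 5 lay between -0.30 and 0.37. In LPS plus BHB against control 5 of the 6 were higher (38% of tested genes were), Slc30a1 being the exception. Under scaling by library totals alone 1 of the 6, Slc30a1, was called lower in that comparison.

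The SLC39 family brings zinc into the cytosol. Of 14 members 11 were tested; 7 rose and 3 fell with LPS, with a median log2 fold change of 0.58, where 38.4% of tested genes rose and 41.4% fell. After Slc39a14 the largest rise was that of Slc39a8 (ZIP8), a zinc and manganese importer, from 6.84 ± 0.503 to 48.02 ± 2.02 CPM (SD, n = 3; 2.81, SE 0.08, adjusted p = 1.08e-17 by edgeR). Slc39a11 fell beside Slc39a10, at -1.46 (SE 0.08), and Slc39a9 rose by 0.58 (SE 0.05). With BHB added 4 rose and 4 fell, with a median of 0.05, where 26.4% of tested genes rose and 24.4% fell. The largest fall was again that of Slc39a8, to 11.2 ± 0.458 CPM (-2.10, SE 0.08, adjusted p = 1.24e-14), followed by Slc39a6 (ZIP6), a close relative of Slc39a10, at -0.78 (SE 0.06). Slc39a9 fell by 0.27 on the log2 scale. Slc39a14 and Slc39a8, the SLC39 genes with the largest rises with LPS, stood at 0.25 (SE 0.08) and -2.10 (SE 0.08) with BHB added, and the difference between these genes was not itself tested. Against control 6 of the 11 were higher and 3 lower with LPS plus BHB (38% and 40.4% of tested genes), with Slc39a8 at 0.72 (SE 0.09), Slc39a13 at 0.89 (SE 0.08) and Slc39a11 at -1.08 (SE 0.08), and library totals alone gave 5 lower.

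Slc39a7 (ZIP7), which releases zinc from the endoplasmic reticulum, had 1 count over all 9 libraries and was not tested. It lies on chromosome 17 (34028269 to 34031682) in a region of 16 protein-coding genes within 100 kb, Slc39a7 itself included. Of these, 8 had at most 10 counts over the 9 libraries, Slc39a7 and the ubiquitously expressed Brd2 (0 counts) among them. Its count therefore cannot be read as its expression.

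**Figure D4:**
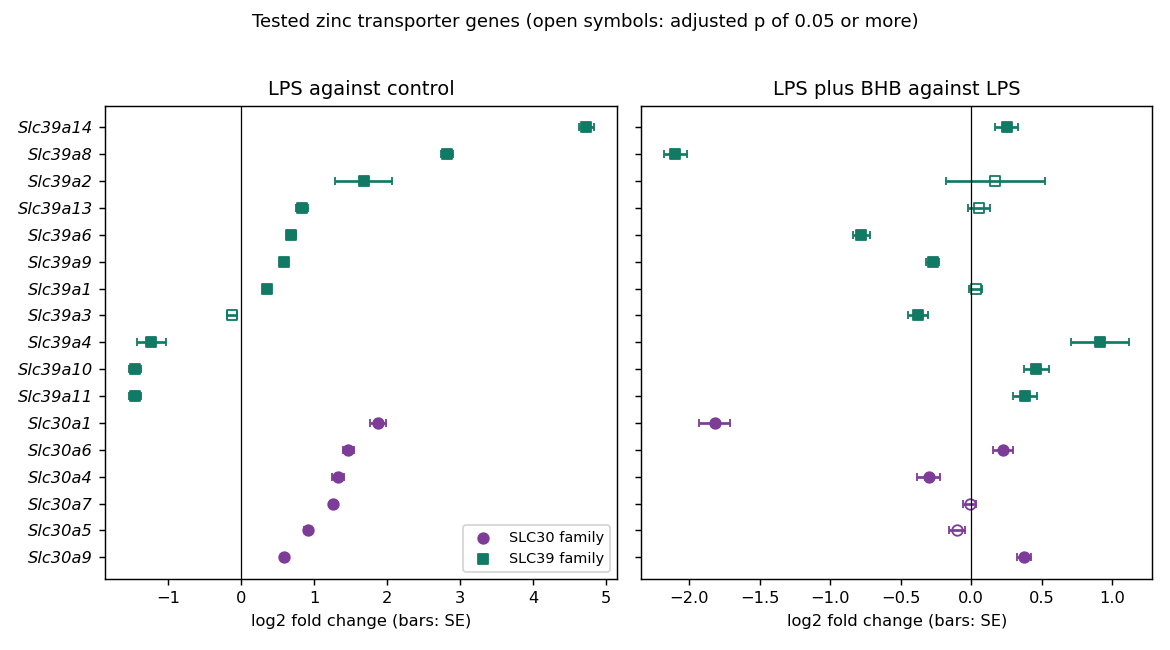
Log2 fold change (horizontal axes, bars are SE) of the 17 tested zinc transporter genes with LPS against control and with LPS plus BHB against LPS, with open symbols where the adjusted p by edgeR was 0.05 or more. All 6 SLC30 genes lie to the right of 0 with LPS, and Slc39a8 (-2.10) and Slc30a1 (-1.82) lie farthest left when BHB is added.

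The members' shares of their families are given as levels, with no test. Slc30a1 made up 34.5 ± 1.12% of the summed level per kilobase of the 6 SLC30 genes in the control libraries, 47.4 ± 0.306% with LPS and 20.05 ± 2.53% with LPS plus BHB (SD, n = 3), per kilobase of annotated exon. With the longest or the first-numbered transcript as length its share was lower, at 25.03% or 23.2%, 37.3% or 35.2%, and 14.1% or 13.1%, and again highest with LPS. Its place depends on the length. By annotated exon it was first, first and second behind Slc30a5, and by either transcript length second behind Slc30a5 in control, first with LPS and at place 5 of 6 with LPS plus BHB. The family sum was 39.3 ± 0.437, 105 ± 0.468 and 70.1 ± 4.14 CPM per kilobase. Slc39a14 went from 0.955 ± 0.179% of the 11 SLC39 genes in control, the eighth in order, to 17.4 ± 0.284% with LPS and 21.3 ± 0.278% with LPS plus BHB, second to Slc39a1 (58.9%, 51.6% and 54.1%). With the first-numbered transcript as length Slc39a14 stood first with LPS (47.4%) and LPS plus BHB (54.4%), and Slc39a1 second (27.9% and 27.5%). Slc39a10 went from 5.12 ± 0.253% to 1.29 ± 0.131% and 1.82 ± 0.271%. The sum of the SLC39 genes was 140 ± 1.92, 203 ± 9.24 and 198 ± 6.13 CPM per kilobase.

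**Figure D5:**
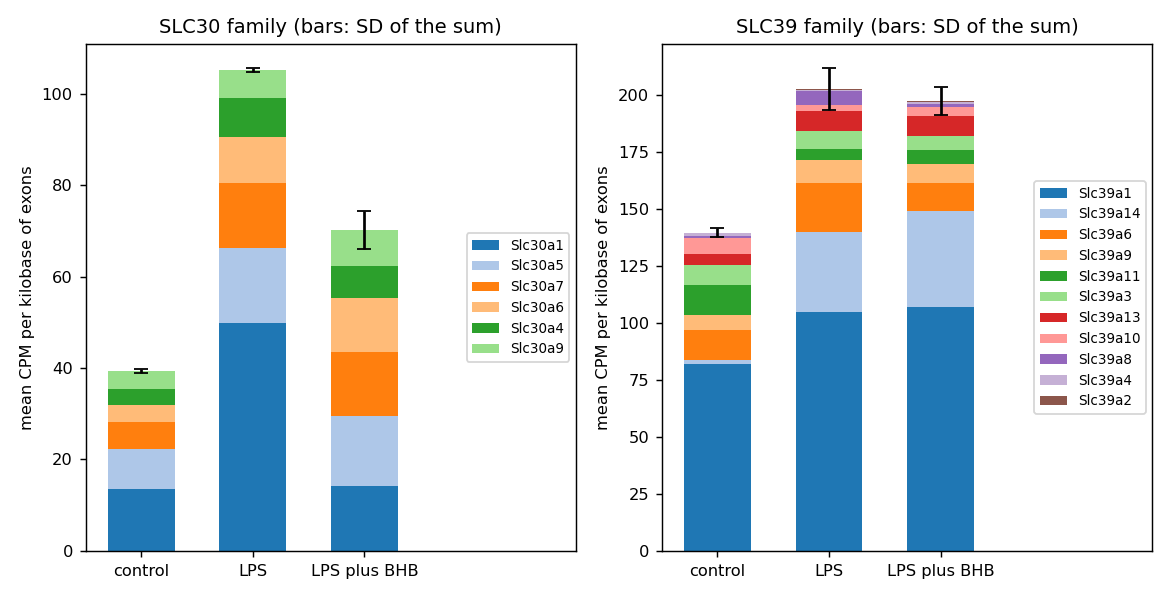
Mean CPM per kilobase of exons (vertical axes from 0), stacked over the tested genes of the SLC30 family (left) and the SLC39 family (right) in each group, with the SD of the sum over 3 libraries as the bar. The SLC30 sum goes from 39.3 in control to 105 with LPS and 70.1 with LPS plus BHB, and Slc30a1 is the largest block with LPS.

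Other genes known to respond to metals through MTF1 were listed with the members Mtf1, Slc30a1 and Slc39a10, giving 6 symbols. Of these 5 were in the table and tested; the symbol Selenow is a newer name of Sepw1, under which the table lists that gene. With LPS 4 rose and 1 fell (median 0.70), where 38.4% of tested genes rose and 41.4% fell. With BHB added 2 rose and 3 fell (median -0.19), where 26.4% of tested genes rose and 24.4% fell. Gclc, which encodes the catalytic subunit for glutathione synthesis, rose from 58.3 to 94.99 CPM (0.70, SE 0.07) and then fell to 49.0 CPM (-0.96, SE 0.07), below control at -0.25 (SE 0.08). Sepw1, a selenoprotein gene, rose in both steps (0.79, SE 0.08, and 0.45, SE 0.08). Against control, 2 of the 5 were higher and 2 lower with LPS plus BHB (median 0.06), beside 38% and 40.4% of tested genes.

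Copper shares metallothioneins with zinc, and 11 of 13 copper handling genes were tested. With LPS 5 rose and 5 fell (median 0.49), so 10 of 11 passed, where 79.8% of all tested genes did. The copper importer gene Slc31a1 rose from 78.9 to 312 CPM (1.98, SE 0.06), its relative Slc31a2 from 40.7 to 320 CPM (2.97, SE 0.06), and the copper chaperone gene Cox17 by 1.54 (SE 0.07). The largest of the 5 falls was that of Steap3, from 24.7 to 1.28 CPM (-4.26, SE 0.19). With BHB added 3 rose and 5 fell (median -0.12), so 8 of 11 passed, where 50.7% of all tested genes did. The chaperone gene Atox1 (0.93, SE 0.07) and the copper pump gene Atp7a (0.62, SE 0.05) rose, and Sco1, which delivers copper to cytochrome oxidase, fell (-0.48, SE 0.08). Atox1 and Atp7a were among the genes that had fallen with LPS. In control, LPS and LPS plus BHB, Atox1 averaged 69.3, 41.3 and 78.5 CPM and Atp7a 127, 67.5 and 104 CPM. Against control 6 were higher and 4 lower with LPS plus BHB (median 0.18), where 78.4% of all tested genes passed.

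Of 7 genes for proteins that withhold or pump metals in host defence, 2 rose and 4 fell with LPS (median -1.10), where 38.4% of tested genes rose and 41.4% fell. The iron exporter gene Slc40a1 had the largest fall of the 7, from 326 to 10.2 CPM (-4.9997 on the log2 scale, SE 0.15). Slc11a1, a metal pump of the phagosome, went from 394 to 184 CPM (-1.10, SE 0.05) and rose to 279 CPM with BHB (0.60, SE 0.05). Lcn2, which binds bacterial iron carriers, went from 0.387 to 11.9 and 8.72 CPM, and Hamp, the iron hormone hepcidin, from 0.0367 to 2.67 and 1.56 CPM. The zinc-binding S100a8 was at 1.59, 1.78 and 3.38 CPM and rose with BHB (0.92, SE 0.24). S100a9, the other S100 gene listed, was at 1.60, 0.465 and 0.824 CPM. It fell with LPS (-1.76, SE 0.42) and did not pass with BHB added (0.81, SE 0.45, adjusted p = 0.146 by edgeR). With BHB added 3 of the 7 rose and 2 fell (median 0.60; 26.4% and 24.4% of tested genes). Against control 3 were higher and 3 lower with LPS plus BHB (median -0.50; 38% and 40.4% of tested genes), with Slc40a1 at 8.36 CPM.

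Glucocorticoids also raise metallothionein transcription, and 7 of 8 listed glucocorticoid-induced genes were tested. With LPS 4 rose and 3 fell (median 0.26), so all 7 passed, where 79.8% of all tested genes did. Sgk1, a kinase gene, rose by 1.86 (SE 0.05), Tsc22d3, an anti-inflammatory leucine zipper gene, fell by 2.84 on the log2 scale, and Zbtb16 went from 4.38 CPM to 0 counts. With BHB added 4 rose and 2 fell (median 0.34; 26.4% and 24.4% of tested genes), with Sgk1 at 0.81 (SE 0.05), the clock gene Per1 at 0.93 (SE 0.09) and Cebpd at -1.31 (SE 0.10). Against control 2 were higher and 3 lower (median -0.02; 38% and 40.4% of tested genes), with Sgk1 at 2.67 (SE 0.05), the phosphatase gene Dusp1 at 1.21 (SE 0.06) and Tsc22d3 at -2.95 (SE 0.10). Library totals alone gave 5 lower. All genes named as risen or fallen in these lists had adjusted p under the threshold by edgeR.

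The genes whose log2 CPM followed each member most closely over the 9 libraries were found among 9323 tested genes averaging 5 CPM or more. The libraries form 3 groups, so these Pearson r values mostly compare group levels and carry no test. For Slc30a1 they were Gle1 (r = 0.999; 22.97 CPM in control, 59.9 with LPS and 23.4 with both), Ern1, the endoplasmic reticulum stress sensor (r = 0.996), and Vps35 (r = 0.995). For Slc39a14 they were Rab11fip1 (25.4, 932 and 1259 CPM), Stx11 (4.18, 78.6 and 84.5 CPM) and the NF-kB inhibitor gene Tnfaip3 (61.5, 1874 and 2438 CPM), each with r above 0.999. Slc39a10 was closest to the heme transporter gene Slc48a1 (r = 0.996; 383, 116.5 and 164 CPM), Msrb1 and Hsd3b7 (both r = 0.995). Mtf1 was closest to Ubl4a (r = 0.997), Epc2 and Actr10 (both r = 0.996). Mt1 was closest to Anapc13 (r = 0.993), Ms4a6b (r = 0.990) and Dhrs7b (r = 0.989), and Mt2 to Thap1 (r = 0.981), Cnot11 (r = 0.980) and Hnrnpr (r = 0.976). No gene appeared for more than 1 member.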

How the data were processed

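RNA-seq of 9 mouse macrophage libraries was used as a deposited table of raw counts per gene symbol, which the authors made after alignment with HISAT2 to mm10, per the submitters' processing notes. The sources used here give no aligner version, counting tool, annotation or strand setting. Each column was matched to its library by title, and groups came from the labels. Library totals of 29633411 to 32798920 counts set the depth; the members had at least 140 counts in each library.

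Genes were filtered with filterByExpr (minimum count 10), scaled with TMM and tested in edgeR 4.0.16 under R 4.3.3 (robust quasi-likelihood fit, group as the only term, all 9 libraries, 6 residual degrees of freedom). P-values are two-sided and adjusted by Benjamini-Hochberg over 14026 genes, with a threshold of 0.05. The SE of a log2 fold change is its size divided by the square root of F, and intervals from it are approximate. The fit was tested on simulated data in which few genes changed, so that test does not cover scaling when most genes change, as here. Exon lengths and coordinates are from GENCODE M21 (GRCm38, the build mm10 names). Alternatives were other scalings, no filter, DESeq2 1.42.0, a replicate block, fits of 6 libraries, each library left out, no control replicates 2 and 3, and other lengths. Family levels by transcript length, the length of the first-numbered transcript, the 300-base promoter window and the Mt1 to Mt2 ratio were chosen after seeing the data. The members and gene lists were chosen with earlier results of these data known, and lists carry no set test. Named genes are the members, at most 3 of each list per comparison with the smallest p, and the 3 genes with the highest correlation (log2 CPM, prior count 2) per member, and other named genes were picked with their values in view. Protein sequences were not used here.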

Additional observations from a re-analysis of the deposited data

How the results depend on the processing

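For LPS against control, all 6 members kept their direction and their call under all 16 alternatives. For LPS plus BHB against LPS, Slc39a14 no longer passed with library totals alone (0.20) or DESeq2 (0.24), so 1 member was higher under each in place of 2. Leaving out 1 library at a time gave 0.21 to 0.28 for Slc39a14, -0.64 to -0.31 for Mt1, and 1 to 2 members higher. Against control, library totals alone put Mtf1 at 0.12 and not called and reversed Slc30a1 to -0.27 and called, and leaving out 1 library gave -0.060 to 0.20 for Slc30a1. Library totals alone moved the share of higher calls among all genes from 48.2% to 37.7% with LPS and from 48.5% to 34.7% with LPS plus BHB, both against control, and from 52.0% to 45.3% with LPS plus BHB against LPS. With the first-numbered transcript as length, 2 of 6 members kept their place in the order of levels with LPS and 3 of 6 with LPS plus BHB, since Mt1 and Slc39a14 then have shorter lengths. The replicate block left every member's call as it was. For LPS against control it gave 5348 genes higher and 5788 lower in place of 5390 and 5801. Deviations from the group means were nearly uncorrelated between same-numbered libraries (-0.0166 to 0.0392 over 9 pairs). Such low values do not tell if same-numbered libraries share an animal or a culture. The lowest count of a member in a library was 140, and no test of depth was run. The causes of these shifts were not tested.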
